A study of Bos taurus with 16 samples.

Results

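The genes described are 9 complement components and regulators: C1QA, C1QB, C1QC, C2, C3, CFB, CFD, VSIG4 and CLU. They were found by the gene name of each array probe or the symbol in brackets in its description. Each gene had 1 probe with 2 spots, so that 9 of the 21475 probes on the array were members, and all 9 passed the filter on dim probes. CD14+ cells sorted from dispersed interplacentomal endometrium were compared with CD14+ cells sorted from the blood of the same 4 pregnant cows. The days of pregnancy were 164, 239, 242 and 248 for animals 1 to 4. By the methods of the study, the uterus and cardiac blood were collected at slaughter. All animals were pregnant, and the labels name no treatment. After 2 rounds of sorting, the purity by flow cytometry was stated in the labels as 90 to 95% for endometrial and 98 to 99% for blood cells. RNA of both tissues of an animal was amplified and hybridized together on 2 arrays with 2 colours, and the dyes were swapped between these arrays in all animals but animal 3.

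Complement is a set of plasma and membrane proteins that marks targets for uptake, attracts leukocytes and can form a lytic pore. C1q, built from the chains encoded by C1QA, C1QB and C1QC, recognizes bound antibody and dying cells and starts the classical pathway, for which C2 supplies a protease. CFB and CFD supply the proteases of the alternative pathway, and C3 is cleaved where all pathways meet. Macrophages are a main source of C1q, and VSIG4 is a receptor of tissue macrophages that binds fragments of C3 and restrains the alternative pathway. Clusterin, the product of CLU, is a secreted chaperone that also hinders the lytic pore and is made by many cell types.

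The array reports each gene through a single stretch of its transcript, and the last 30 bases of the 60-base probes are shown for the C1q chains, because their ratios varied least between animals, for VSIG4, and for C2 and CFB, which encode related proteases. Capitals mark the sequence AATAAA, the usual signal for addition of the poly(A) tail.
C1QA: ttggaactcttcctggAATAAAtatctgaa
C1QB: ccctaaatgattgaatAATAAAtgacctct
C1QC: cacaAATAAAtaactaaatcaacagcgcca
VSIG4: ctgctcctgtactatgagcctagtgctcta
C2: ccttacataggaaattacccagttatgaaa
CFB: gctggaaaggggcatgagaccaaattaaaa
AATAAA was found on the probe's strand in the probes of C1QA, C1QB, C1QC and CFD, 4 of the 9, and in 11.8% of all probes on the array. No pair of the 9 probes shared an unbroken run of more than 9 bases. In assembly ARS-UCD2.0, by the table of reference genes, C1QC and C1QA were direct neighbours, C1QB was separated from C1QC by 1 other gene, and CFB and C2 were direct neighbours.

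The labelled cell type was compared with its defining markers before any ratio was taken. The log2 normalized value of CD14 in blood cells was 16.12 in animal 1 against 5.76, 8.85 and 6.94 in animals 2, 3 and 4. In endometrial cells it was 14.04 in animal 1 and 6.07, 9.5 and 7.38 in the others. CSF1R, the receptor for the main growth factor of macrophages, was likewise highest in animal 1, at 14.73 in blood against 6.67, 9.33 and 7.69. In endometrium CSF1R was 16.15 in animal 1 against 10.71, 13.01 and 12.68 in the others. CD3E, a marker of T cells, ran the other way in blood, at 8.03 in animal 1 and 14.07, 13.01 and 14.24 in animals 2, 3 and 4. In endometrium CD3E was 10.29 in animal 1 and 15.18, 14.72 and 13.98 in the others. MS4A1, a marker of B cells, was 8.10 in blood of animal 1 and 8.93, 11.66 and 10.77 in the others. In endometrium MS4A1 was 2.76, 3.79, 6.36 and 10.27 in animals 1 to 4. By these markers the blood cells of animal 1 stood apart from the other blood samples, and the blood samples labelled CD14+ from animals 2, 3 and 4 held less CD14 and CSF1R signal and more CD3E signal than those of animal 1. Endometrial samples labelled CD14+ from animals 2, 3 and 4 likewise held less CD14 and CSF1R and more CD3E signal than those of animal 1. Summed over the 10 probes of the monocyte and macrophage list, the log2 level in blood was 18.32 in animal 1 and 12.94 to 13.82 in the others, whereas over the 12 lymphocyte probes it was 14.70 in animal 1 and 17.25 to 17.56 in the others. The lymphocyte sum in endometrium was 16.17 in animal 1 and 17.15 to 18.2 in the others. In these bulk samples, fewer cells of a type and less RNA per cell cannot be told apart.

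**Figure D1:**
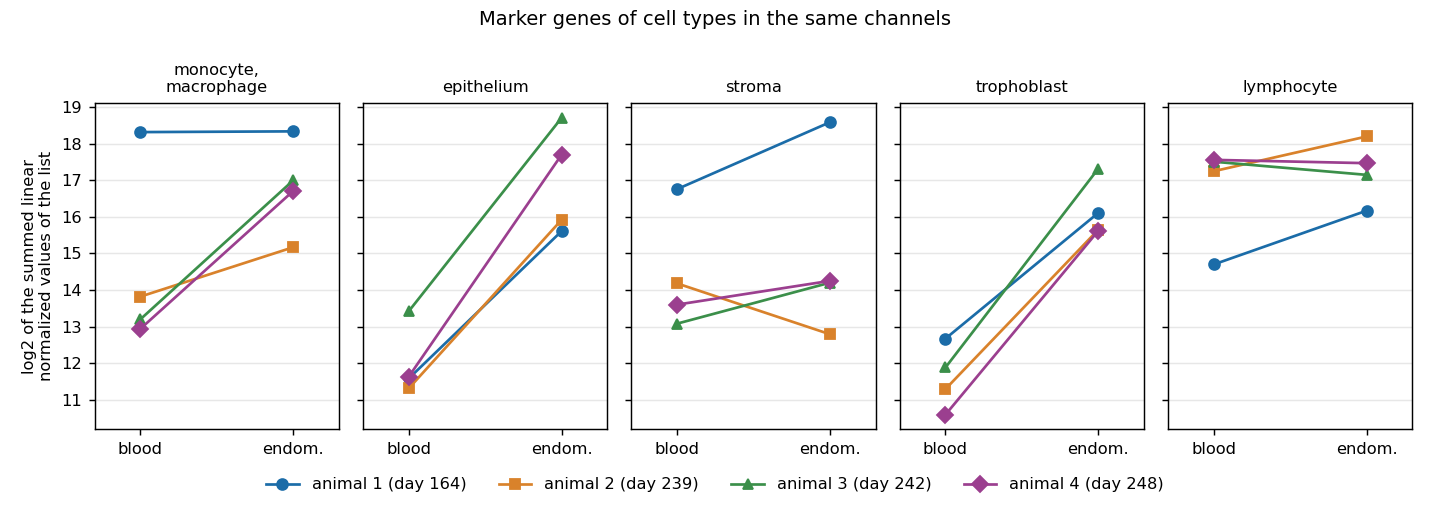
Log2 of the summed linear normalized values of 5 lists of marker genes (y axis) in blood and endometrial cells (x axis), with 1 line for each animal. In blood, animal 1 was highest for monocyte and macrophage markers (18.32) and lowest for lymphocyte markers (14.70), and the epithelium and trophoblast lists were higher in endometrium in every animal.

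The summed levels of the epithelial and trophoblast lists rose from blood to endometrium within every animal, and that of the stromal list within 3 of the 4. Taken singly, 13 of the 14 epithelial, 7 of the 9 trophoblast and 6 of the 14 stromal probes tested had ratios above 0 in each animal. Among the exceptions, ELF3 of the epithelial list had log2 ratios of -0.52 and -0.6 in animals 1 and 2. In the trophoblast list, CYP19A1 averaged -0.15, and 1 PAG7 probe had a ratio of -0.2 in animal 1. Of the 14 epithelial probes tested, 8 passed the test as higher in endometrium, and the summed level of the list ran from 11.31 to 13.42 in blood and from 15.61 to 18.71 in endometrium. KRT18, an epithelial keratin, had a log2 ratio of 3.91 ± 0.61 (SD, n = 4 animals), and EPCAM, an epithelial adhesion molecule, one of 4.41 ± 1.72. Of the 9 trophoblast probes tested, 6 passed as higher in endometrium, and the summed level ran from 10.59 to 12.67 in blood and from 15.62 to 17.32 in endometrium. PAG4 and CSH1, which encode a pregnancy-associated glycoprotein and placental lactogen, had ratios of 5.19 ± 0.54 and 5.45 ± 0.59. Of the 14 stromal probes tested, 2 passed as higher in endometrium, 1 for DCN and that for COL3A1, with summed levels of 13.08 to 16.76 in blood and 12.79 to 18.59 in endometrium. The summed level of the stromal list in animal 2 was lower in endometrium, at 12.79 against 14.18 in blood. That sum lay close to the level of VIM alone, whose log2 ratio in animal 2 was -1.51. COL3A1 and 1 DCN probe were higher in endometrium of animal 2, at 1.95 and 2.62. The median ratio over the stromal probes tested was -0.32 in animal 2. COL1A1 and COL3A1, which encode fibrillar collagens, had ratios of 3.66 ± 2.94 and 4.86 ± 2.00, with COL1A1 at -0.49 in animal 2, and the median over the stromal probes tested was 2.46. No defining marker was without signal in endometrium, and for COL3A1 2 of the 8 blood channels were well above background. Of the 8 monocyte and macrophage probes tested and the 12 lymphocyte probes, 0 passed in either direction. By a looser criterion, a fold change over 2 with an unadjusted p no higher than 0.05, the numbers were 5 and 3 higher in endometrium and 0 and 2 higher in blood. The median log2 ratio of the 8 monocyte and macrophage probes was 1.63, with 6 of them higher in endometrium on average. CSF1R had a ratio of 3.53 ± 1.51, above 0 in 4 of 4 animals (adjusted p = 0.0643 by limma). That of CD14 was -0.17 ± 1.28. The list's summed level in animals 2, 3 and 4 was 15.17, 17 and 16.71 in endometrium against 13.82, 13.2 and 12.94 in blood. In animal 1 it was 18.34 against 18.32. The part of any of these cell types in the results below was not tested.

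Of the 9 complement genes, 5 were differentially expressed, all higher in endometrial CD14+ cells: C1QA, C1QB, C1QC, VSIG4 and CLU. The criterion was a fold change over 2 with an adjusted p no higher than 0.05, by limma and Benjamini-Hochberg over 16654 probes. It was met by 1.22% of all probes tested as higher in endometrium and by 0.120% as higher in blood. The genes had been chosen with results of these samples known, so the count is a description and not independent evidence. VSIG4 had passed the filter on dim probes through endometrium alone, since its blood signal was well above background in animal 1 only, so its call compares endometrium with a blood level at background in the other 3 animals. The other 4 called genes were well above background in every channel of both tissues. CFB, C3, C2 and CFD did not pass. By the looser criterion with an unadjusted p, 8 of the 9 were higher in endometrium, all but CFD, and so were 7.98% of all probes. The ratio was above 0 in 4 of 4 animals for 7 of the genes, and in 3 of 4 for C3 and CFD, whereas 9.82% of all probes were higher in endometrium in every animal. The median log2 ratio of the 9 was 3.75, against -0.14 for all probes tested. The values are those of the authors' table. When the scanner intensities were instead corrected by normexp, which draws dim signals together on the log scale, 0 of the 9 passed, although all 9 mean ratios kept their sign, and 0.0661% of all probes were called. The call also depended on the animals: 0 of the 9 passed without animal 1 or without animal 4, 2 passed without animal 3, and 0 passed when the tissues were not paired within animals.

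**Figure D2:**
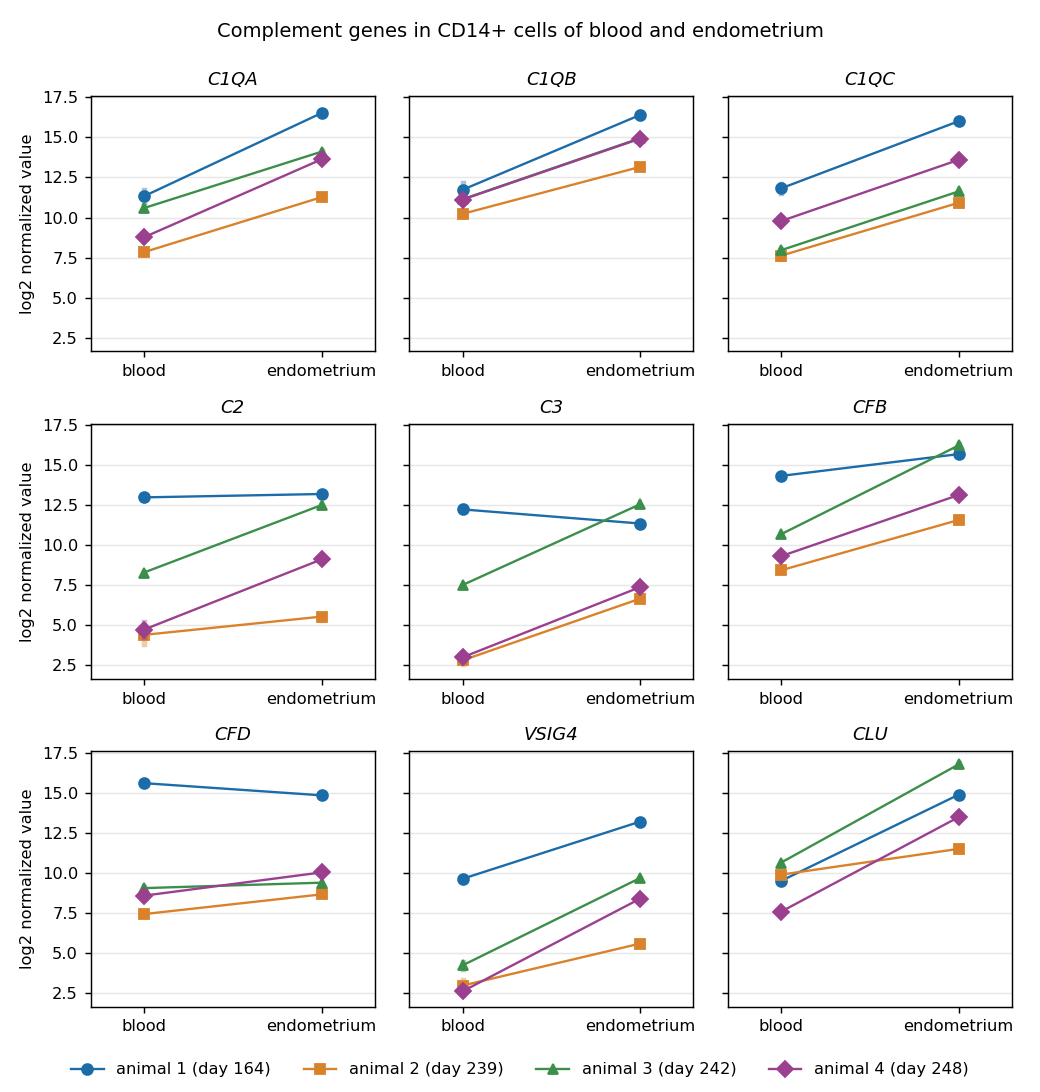
Log2 normalized value (y axis) of the 9 genes in blood and endometrial CD14+ cells (x axis), with 1 line for each animal and a pale bar for the span of its 2 technical replicates. The C1q chains rose from blood to endometrium in parallel lines, whereas C2, C3 and CFD in animal 1 were already high in blood, at 12.98, 12.23 and 15.59.

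The C1q chains were 13.4-fold to 19.1-fold higher in endometrial than in blood CD14+ cells, and their ratios had the 3 smallest SDs among the 9 genes. For C1QA, the log2 value was 11.33, 7.84, 10.59 and 8.77 in blood and 16.52, 11.27, 14.11 and 13.63 in endometrium of animals 1 to 4. The ratio was therefore highest in animal 1, at 5.19, and lowest in animal 2, at 3.44, and averaged 4.25 ± 0.90 (SD, n = 4 animals; adjusted p = 0.0142). The ranges of the 2 tissues overlapped narrowly, since blood of animal 1 was just above endometrium of animal 2.

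For C1QB, the values were 11.73, 10.23, 11.14 and 11.12 in blood and 16.40, 13.16, 14.95 and 14.92 in endometrium. Every endometrial value was above every blood value, which was true of C1QB and CLU among the 9 genes and of 2.70% of all probes tested. The log2 ratio of C1QB averaged 3.81 ± 0.71 (adjusted p = 0.0168).

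For C1QC, the values were 11.82, 7.62, 7.96 and 9.78 in blood and 16.01, 10.92, 11.63 and 13.60 in endometrium. Blood of animal 1 was above the endometrium of animals 2 and 3, so that the tissues overlapped, but the ratios within animals ran only from 3.31 to 4.19. They averaged 3.75 ± 0.37 (adjusted p = 0.0132). An SD of 0.37 equalled the 5th percentile of all probes tested, whose median SD was 1.12. All 3 chains were well above background in 8 of 8 channels of each tissue.

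The profiles of the 3 chains over the 8 means of an animal and a tissue had Pearson correlations of 0.96 for C1QA with C1QB, 0.89 for C1QA with C1QC and 0.90 for C1QB with C1QC. Such correlations are descriptions over 8 values that share animals and arrays. Other genes came as close to the chains, with 0.92 for C1QA with VSIG4, 0.90 for C1QA with CFB and 0.89 for C1QC with VSIG4. The 5 other probes with the profiles most like the mean of the 3 chains were those for APOE, SLCO2B1, PID1, AK1 and RARRES1, with r of 0.975 to 0.982. APOE encodes a lipid carrier that macrophages secrete, and SLCO2B1 an organic anion transporter. The log2 ratio was 4.10 for APOE and 5.64 for SLCO2B1. In blood APOE was 9.88, 6.63, 7.15 and 7.14 in animals 1 to 4, and in endometrium 14.24, 9.77, 12.04 and 11.17. Animal 1 was thus highest and animal 2 lowest in both tissues, as for C1QA, C1QB and C1QC. As the 5 probes were picked by likeness over these same 8 values, the shared order of animals is not further evidence.

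**Figure D3:**
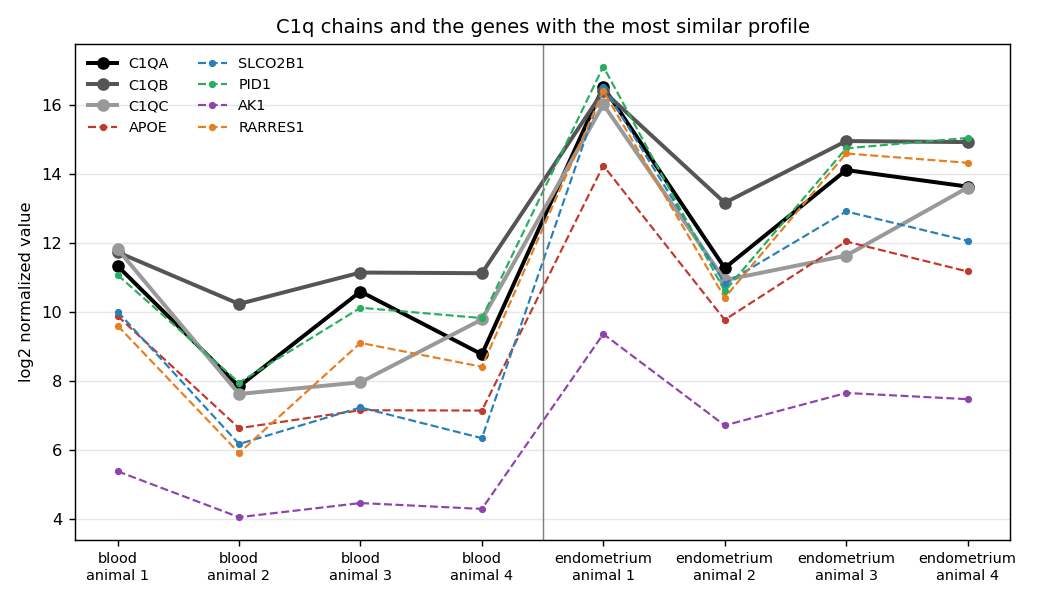
Log2 normalized value (y axis) of the 3 C1q chains (solid lines) and of the 5 genes with the most similar profile (dashed lines) in each animal and tissue (x axis). All 8 probes were higher in endometrium than in blood of the same animal, and in endometrium animal 1 was highest and animal 2 lowest for each of them. The 5 genes were picked for their likeness over these same values, so the shared pattern is not further evidence.

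C2, C3 and CFB, which encode the shared substrate and proteases of the C3 convertases, differed between animals more than the C1q chains did. C3 was 12.23, 2.81, 7.51 and 3.00 in blood and 11.35, 6.66, 12.55 and 7.38 in endometrium of animals 1 to 4. In animal 1 it was slightly lower in endometrium, with a log2 ratio of -0.88, and in animals 2, 3 and 4 it was higher, with ratios of 3.85, 5.04 and 4.38. The mean of 3.1 ± 2.70 did not pass the test (adjusted p = 0.222). Without animal 1, 2, 3 or 4 the mean was 4.42, 2.85, 2.45 or 2.67, with adjusted p values of 0.0548, 0.403, 0.492 and 0.338, so that C3 did not pass in any of these fits. In blood of animals 2 and 4, C3 was well above background in 0 of 2 channels each.

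C2 was 12.98, 4.40, 8.29 and 4.73 in blood and 13.19, 5.54, 12.50 and 9.11 in endometrium. Its log2 ratio was near 0 in animal 1, at 0.21, was 1.14 in animal 2, and was 4.21 and 4.39 in animals 3 and 4. The mean of 2.49 ± 2.13 did not pass (adjusted p = 0.232). Of the 8 blood channels, 5 had a C2 signal well above background.

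CFB was 14.32, 8.43, 10.68 and 9.31 in blood and 15.68, 11.57, 16.22 and 13.13 in endometrium, with clear signal over background in every channel. The log2 ratio was above 0 in every animal, lowest in animal 1 at 1.36 and highest in animal 3 at 5.55. The mean of 3.46 ± 1.73 did not pass (adjusted p = 0.0942, and 0.0389 to 0.495 over the alternatives). The lower of these came from a fit of the 8 arrays with a term for dye, the only 1 of 14 alternatives in which CFB was called. Over the 8 means, the profiles of C2, C3 and CFB had correlations of 0.96 for C2 with C3, 0.93 for C2 with CFB and 0.95 for C3 with CFB. VSIG4 was as close, with 0.94 for CFB and 0.92 for C2, so that high correlations were not particular to these 3 genes.

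CFD, the protease that activates factor B, had the smallest ratio of the 9 genes. It was 15.59, 7.42, 9.04 and 8.57 in blood and 14.83, 8.65, 9.38 and 10.02 in endometrium, again with clear signal in every channel. The values of animal 1 were far above those of the other animals in both tissues. The log2 ratio was -0.76, 1.23, 0.35 and 1.46 in animals 1 to 4, with a mean of 0.57 ± 1.01 (adjusted p = 0.645), which is less than the spread between animals.

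VSIG4 was detected in endometrium of every animal, and in blood above background only in animal 1. Its log2 value was 9.62, 2.96, 4.22 and 2.60 in blood and 13.19, 5.58, 9.67 and 8.38 in endometrium. It was well above background in all 8 endometrial channels, but in blood only in the 2 channels of animal 1. The log2 ratio was 3.57, 2.62, 5.44 and 5.78, with a mean of 4.35 ± 1.51 (adjusted p = 0.0302, and 0.0134 to 0.507 over the alternatives). The size of the ratio in animals 2, 3 and 4 rests on blood values not well above background. The call was also lost in the fit with a term for dye (adjusted p = 0.0783). With normexp values the mean was 1.68, the ratios of animals 2, 3 and 4 being 0.31, 1.96 and 1.27, and did not pass (adjusted p = 0.267). In animal 1, where both tissues were measured above background, it was 3.57 with the authors' values and 3.19 with normexp values.

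CLU had the largest mean ratio of the 9 genes, 4.76 ± 2.12, a 27.1-fold difference (adjusted p = 0.0486). It was 9.49, 9.88, 10.63 and 7.57 in blood and 14.87, 11.49, 16.76 and 13.47 in endometrium, with no overlap between tissues and all channels well above background. The ratio was 5.39, 6.14 and 5.90 in animals 1, 3 and 4, but 1.61 in animal 2. Without animal 2 the mean was 5.81 (adjusted p = 0.0287), but the call was lost without animal 1, 3 or 4, with means of 4.55, 4.3 and 4.38 (adjusted p = 0.175, 0.179 and 0.130). It was lost as well with the scanner's processed intensities (adjusted p = 0.0803) and with technical replicate 1 alone (adjusted p = 0.0571). CLU was the gene for which blood of animal 1 was least different from that of the other animals.

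**Figure D4:**
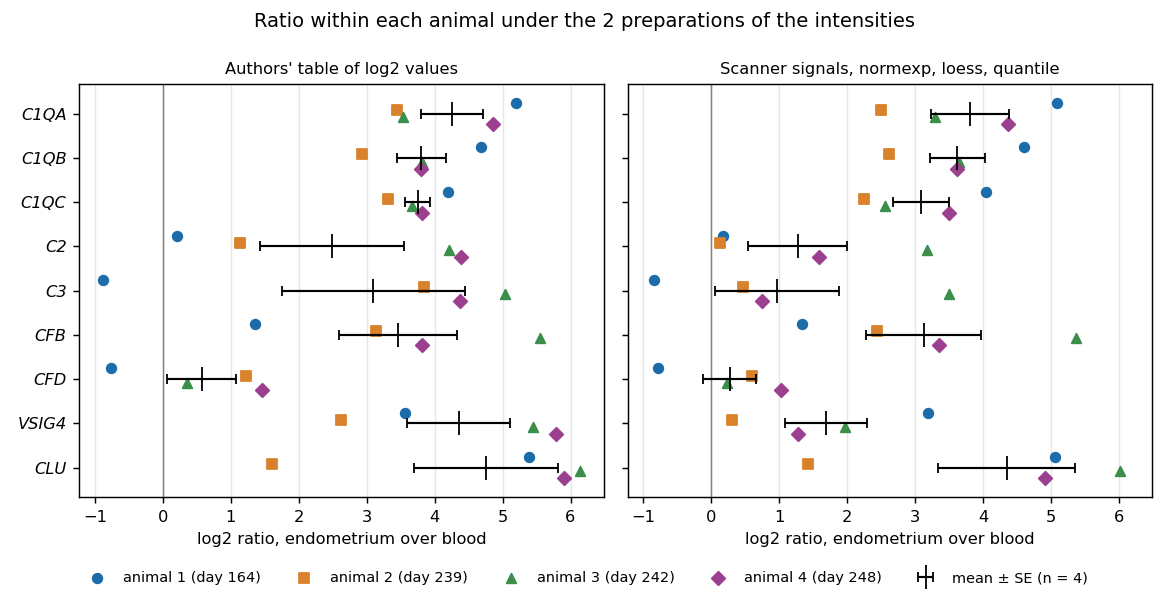
Log2 ratio of endometrium over blood (x axis) in each animal, with the mean and its SE over 4 animals, for the authors' values (left) and for normexp values of the scanner intensities (right). The mean ratios of the C1q chains, CFB and CLU were above 3 in both, although 0 of the 9 genes passed the test with normexp values, whereas C2, C3 and VSIG4 fell from 2.49, 3.1 and 4.35 to 1.27, 0.97 and 1.68.

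The genes divided by how blood of animal 1 compared with blood of the other animals, a comparison chosen after the values were seen. Its log2 value exceeded the mean of animals 2, 3 and 4 by 7.79 for C3, 7.24 for CFD, 7.17 for C2, 6.36 for VSIG4 and 4.85 for CFB. All 5 differences were above the 95th percentile of all probes tested, which was 3.48, and the median was -0.16. The corresponding differences were 3.37 for C1QC, 2.27 for C1QA, 0.90 for C1QB and 0.13 for CLU. In endometrium, animal 1 exceeded the others by 5.48 for CFD, 5.32 for VSIG4, 4.14 for C2, 3.96 for C1QC and 3.51 for C1QA, where the 95th percentile was 3.41. The differences for C3, C1QB, CFB and CLU were 2.49, 2.06, 2.04 and 0.96. The values of CD14, CSF1R and the monocyte and macrophage list were also highest in animal 1. So were those of the stromal list, at 16.76 in blood against 13.08 to 14.18 in the others and at 18.59 in endometrium against 12.79 to 14.25. The blood sums lay close to the level of VIM alone, which ran from 12.94 to 16.68 in blood. COL1A1 and COL3A1 were also highest in animal 1 in both tissues, at 9.88 and 8.12 in blood. The part of either cell type in these differences was not tested. As animal 1 was the only animal before day 239, its stage of pregnancy and the animal itself cannot be told apart.

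The normexp values gave a smaller mean ratio for each of the 9 genes. Mean log2 ratios were 3.81 for C1QA, 3.62 for C1QB and 3.08 for C1QC, with adjusted p values of 0.134, 0.0775 and 0.119. They were 4.35 for CLU and 3.12 for CFB (adjusted p = 0.242 and 0.262). For C2, C3 and CFD they were 1.27, 0.97 and 0.27. Over all probes tested the median ratio was -0.023 with these values. The ratios of the 2 arrays of an animal differed by a median of 0.14 over the 36 pairs of gene and animal, and by at most 1.18, for C2.

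Other complement genes did not pass the test in either direction. Of 42 genes in lists of initiating components, terminal components, regulators and receptors, 36 had a probe and 24 passed the filter on dim probes. In limma's test 0 of the 24 were called, where 1.22% of all probes tested were called as higher in endometrium and 0.120% as higher in blood. With shares this low, a count of 0 does not set these genes apart from other probes. With normexp values and with the analysis of variance of the methods 0 of them were called as well. These settings called 0.0661% and 0 of all probes, so those counts add nothing. By the looser criterion, 5 were higher in endometrium and 2 in blood, and 7.98% and 8.05% of all probes were. The median log2 ratio of the 24 was 0.14. In 4 of 4 animals, 3 of the 24 were higher and 3 were lower in endometrium, as were 9.82% and 15.2% of all probes.

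Among the initiating components, the 5 tested had a median log2 ratio of -0.44. C1R, the protease that C1q activates first, had ratios of 1.70, 0.60, 2.08 and 3.78 in animals 1 to 4 and a mean of 2.04 ± 1.32 (adjusted p = 0.207). MASP2, the protease of the lectin pathway, was lower in endometrium in 4 of 4 animals, with a mean of -2.11 ± 1.85 (adjusted p = 0.250). The mannose-binding lectin genes MBL1 and MBL2 did not pass the filter. Of the terminal components, C7, C8A, C8B and C8G were tested, with a median ratio of 0.06, and C5, C6 and C9 were well above background in no channel.

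Among the 8 regulators tested, with a median of 0.60, 3 were higher in endometrium by the looser criterion. CFI, the protease that inactivates C3b, had ratios of -0.01, 1.84, 6.62 and 5.25 and a mean of 3.42 ± 3.04 (adjusted p = 0.222). Its ratio was thus lowest in animal 1, as were those of C2, C3, CFB and CFD. SERPING1, the inhibitor of C1, averaged 2.14 ± 1.65 and CD59, which blocks the lytic pore, 2.05 ± 1.26 (adjusted p = 0.227 and 0.198). SERPING1 was well above background in only 4 of 8 channels of each tissue, and CD59 in 8 of 8. CD55, which speeds the decay of C3 convertases, was lower in endometrium in 4 of 4 animals, at -2.38 ± 1.53 (adjusted p = 0.189).

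Of the 7 receptors tested, with a median of 0.41, C3AR1 was the only one to meet the looser criterion. This receptor for the C3a fragment had ratios of 4.29, -0.08, 2.63 and 0.60, with a mean of 1.86 ± 1.99 (adjusted p = 0.309), so that the ratio of animal 2 was near 0.

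**Figure D5:**
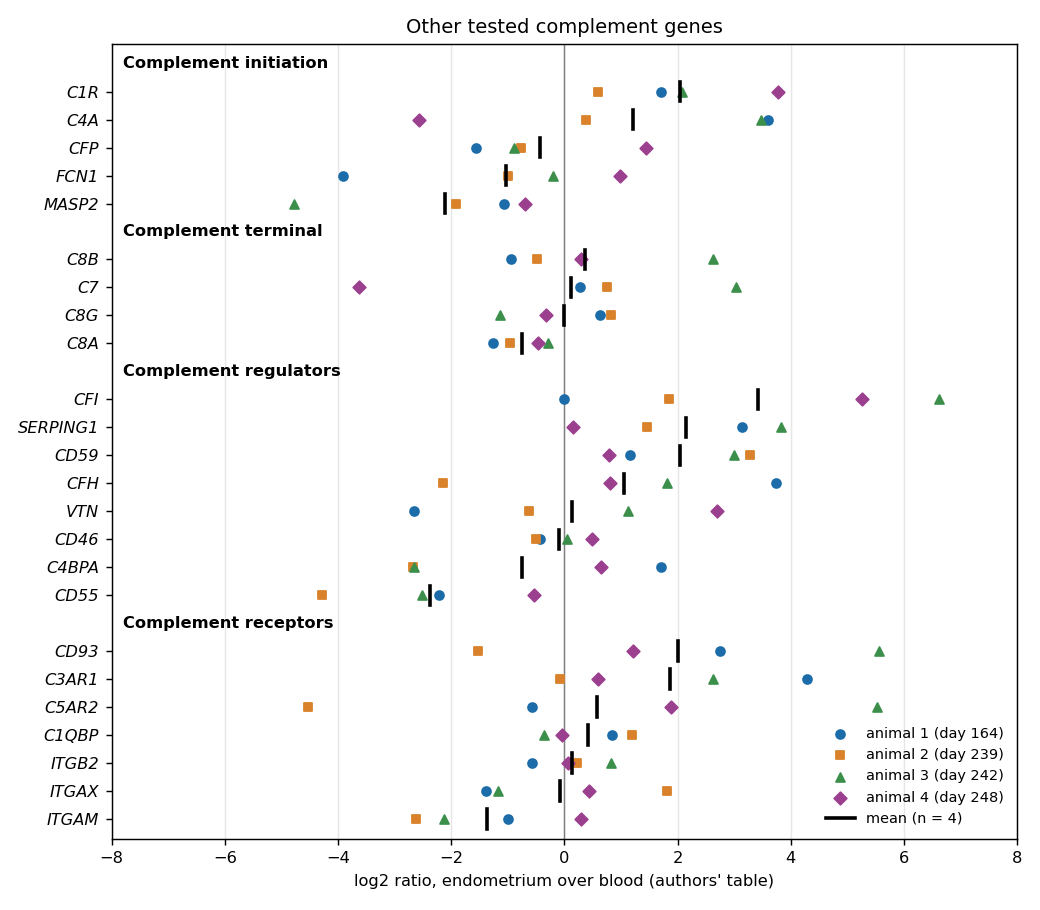
Log2 ratio of endometrium over blood (x axis) of the 24 other complement genes that passed the filter (y axis), by list, with a point for each animal and a black bar for the mean. Animals lay on both sides of 0 for all but 6 of the genes, of which 3 were higher and 3 lower in endometrium in 4 of 4 animals.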

How the data were processed

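RNA of 16 samples, 2 technical replicates of 2 tissues of 4 animals, was measured on 8 arrays. The authors deposited scanner files with the median intensity of each spot and its background, without normalization, and processed intensities, and a table of log2 values, normalized by lowess within arrays and quantiles over channels, which was the source of all values unless stated. To match columns to channels, spots of each channel were ranked by processed intensity and the table's own sorted values were placed on these ranks. By this comparison of rank order, each of the 16 columns equaled 1 dye of a scanner file at 100% of probes within 0.001. It was the labelled dye in each case. The matching file was attached not to the same technical replicate but to its counterpart from the same animal, and scanner files were read accordingly. This was decided with the values in view. Submitters' processing notes name Feature Extraction 9.5. The design build was btau 2.1, so the reference gene table gave only names and the order of neighbouring genes.

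Spots of a probe and technical replicates were averaged. The log2 ratio within each animal was tested against 0 with limma 3.58.1 in R 4.3.3 (lmFit, eBayes) over 4 animals, with Benjamini-Hochberg adjustment over 16654 probes that were well above background in at least 4 of 8 channels of a tissue. A probe counted as such in a channel if the majority of its spots did. An exact 2-sided permutation test within 4 animals cannot give a p under 0.125. Both tissues come from the same animal, and their deviations from tissue means correlated in animals 1 to 4 (r = 0.628, 0.372, 0.239 and 0.452). As they were also hybridized on the same arrays, shared animal and shared array cannot be told apart in these correlations. The fit was also run on simulated data with a smaller spread between animals than was measured, so that run does not bear on the calls. The main alternative used normexp (offset 50), loess and quantiles on median intensities. Other alternatives changed normalization, filter, pairing, replicates, animals and test. Depth has no counterpart here, and the number of arrays limits precision.

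Besides the 9 genes, those named are called genes of the other complement lists, up to 3 in each direction per list at an unadjusted p of at most 0.05, defining markers, and the 5 genes most like the C1q chains. Other genes, named for counts of 5 or fewer or for their part in a summed level, were chosen after their values were seen. The genes and lists were chosen with earlier results of these data known.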

Additional observations from a re-analysis of the deposited data

Results flagged for a closer look

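The log2 ratio of CLU in animal 2, 1.61, lay far below those of the other 3 animals, 5.39 to 6.14. Its gap to the nearest animal was 0.834 of the whole range, just above Dixon's critical value at the 95% level for 4 animals. Among the 27 groups of 4 animals examined in this way, the ratio, blood level and endometrial level of each of the 9 genes, it was the only one, and chance gives about 1 in 20.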

How the results depend on the processing

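All 9 mean ratios kept their sign in 14 alternatives, and the calls did not stay the same. Changes of the filter, the loss of pairing and the analysis of variance leave the mean ratio itself unchanged, so its sign could not change in those alternatives. Of all probes, 224 were called, 204 of them higher in endometrium. These counts were 11 and 11 with normexp, loess and quantiles, 5 and 5 without the quantile step, 123 and 115 with no filter on dim probes, 0 and 0 with the analysis of variance of the methods, and 2670 and 1329 at an unadjusted p of at most 0.05. Leaving out 1 animal gave 0 to 180 and 0 to 176. Of the 9 complement genes, 5 were called, and 0 with either normexp setting, 3 with no filter, 0 with the analysis of variance and 8 at an unadjusted p, with 0 to 5 when 1 animal was left out. Without animals 1, 2, 3 and 4 in turn, they were 0, 5, 2 and 0. With no replicate block, that is without pairing the tissues of an animal, 38 probes were called, 35 of them higher in endometrium, and 0 of the 9. Of the other complement genes, 0 were called, and 7 at an unadjusted p. The scanner's processed intensities, the stricter filter, single technical replicates and the fit with a dye term gave 4 or 5 of the 9. In the last of these the 5 included CFB and not VSIG4. Blood signals of C2, C3 and VSIG4 were in part not well above background. The causes of the changes in calls were not tested.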

Other observations

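A further 3 probes carry descriptions that resemble members without being named as such, and were chosen by these descriptions. LOC508007 and LOC528040 are described as similar to the precursor of complement C3, and LOC513351 as similar to the precursor of clusterin. The log2 ratio of LOC508007 was -0.57 ± 0.60 (SD, n = 4 animals), lower in endometrium in 4 of 4 animals, and that of LOC528040 was 0.08 ± 0.69. LOC513351 was well above background in 0 of 8 channels of either tissue. The probes for C3 and CLU themselves had mean ratios of 3.1 and 4.76.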
